A study of Macaca mulatta with 22 samples.

Results

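The comparison was between 8-cell (8C) and 4-cell (4C) embryos of the rhesus macaque, the interval in which the embryonic genome of this species becomes broadly active. Its members were the 2 libraries labelled 8C and the 3 labelled 4C, chosen by their stage labels, 5 of the 22 libraries of the series. Each library was 1 single whole embryo made by sperm injection and kept in culture, with no treatment or genetic change named for either stage, so the stages shared their source and handling as far as the labels say. The other 17 libraries were oocytes at the germinal vesicle (GV), metaphase I (MI) and metaphase II (MII) stages and embryos at the pronuclear (PN), 2-cell (2C), morula (Mo) and blastocyst (Bl) stages. No label names an animal or parent. The p-values thus reflect how much single oocytes or embryos varied within a stage, pooled over all stages of the series, and nothing beyond that. A whole embryo gives 1 sum over its cells, and fewer cells expressing a gene cannot be told apart from less RNA per cell.

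A fertilised egg starts with RNA stored during oocyte growth, and its first divisions run on this store while the genome is almost silent. Maternal RNA is then shortened at its poly(A) tail and degraded, and transcription from the embryo's own genome starts, first in a minor and then in a major wave. In primates, PRD-like homeobox factors, ZSCAN4 and several fast-evolving multicopy families mark that wave. Reverse transcription started from poly(A), so that lengthening or shortening of the tail can change a value without a change in the number of RNA molecules.

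The values are RPKM (reads per kilobase of gene per 1e6 mapped reads), deposited by the authors. Depth, estimated from the steps between low values, was 20.49 and 5.57 M reads (M, 1e6) in 8C-1 and 8C-2 and 9.41 to 14.12 M reads in the 4C libraries. At least 1 RPKM was reached by 9497 and 9352 entries at 8C and by 8098 to 8578 at 4C. The 10 most abundant entries took 14% and 16.4% of the summed RPKM at 8C, against 25% to 34.4% at 4C. The summed RPKM itself was 350994 and 292453 at 8C and 410463 to 438225 at 4C. On log2(RPKM + 1), the 8C libraries correlated across entries at 0.836 with each other, pairs of 4C libraries at 0.92 to 0.939, and 8C with 4C libraries at 0.66 to 0.706. Mo-2 held fewer detected entries than any other library, 4277, and the spread pooled over the stages includes it.

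Of 14312 entries tested, 24% differed between 8C and 4C. Of these, 1989 (13.9%) were higher and 1453 (10.2%) were lower at 8C, by limma on log2(RPKM + 1) with Benjamini-Hochberg adjusted p under 0.05. The spread was pooled over the 9 stages, with 13 residual degrees of freedom. The rises were larger than the falls: their median was 2.33 log2 units, and 609 of them were at least 3 units and 105 at least 5 units. The falls had a median of -2.01 log2 units, with 175 of at least 3 units and 3 of at least 5 units. Among the higher entries, 952 had been under 0.5 RPKM in every 4C library, and among the lower entries 318 were under 0.5 RPKM in both 8C libraries. Of all tested entries, 23.3% lay higher at 8C with no overlap between the stages and 23.5% lay lower. A lack of overlap is thus common with 2 and 3 libraries, and it held for 1952 of the entries called higher and 1437 of those called lower. Entries called higher had a median gene span of 14.2 kb, those called lower 32.8 kb, and all tested entries 21.7 kb.

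The balance of the calls moved with the filter and the scaling, and the number lower moved with 8C-1. Of the calls, 57.8% were higher at 8C, and 70.2% were when every library was scaled to the same summed RPKM, which moved the median change of all entries to 0.119 log2 units (it was 0 as deposited). With a filter of at least 5 RPKM in 2 libraries, falls outnumbered rises, with 1298 higher and 1385 lower (48.4% higher). Without 8C-1, 902 entries were lower, and a fit of the 5 libraries alone gave 1348 higher and 968 lower.

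**Figure D1:**
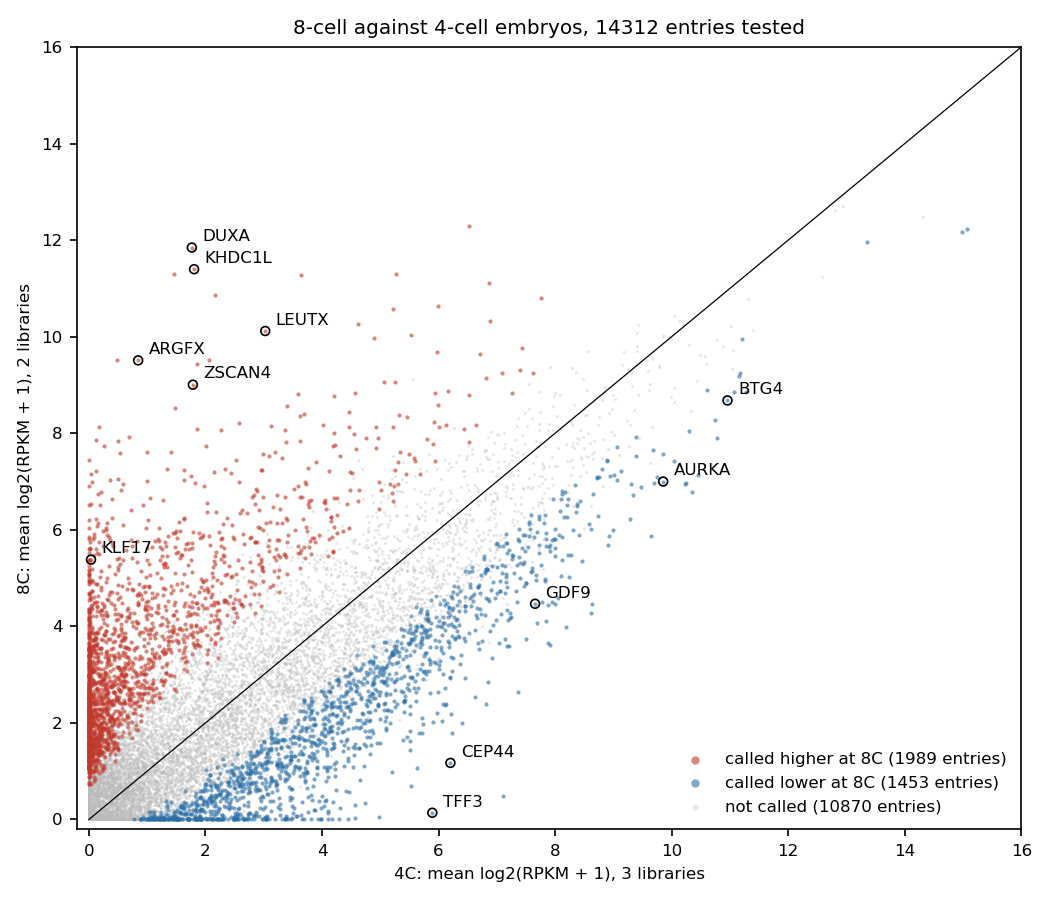
Mean log2(RPKM + 1) of the 2 libraries of 8C (vertical) against that of the 3 libraries of 4C (horizontal) for the 14312 tested entries. Red points are the 1989 called higher and blue points the 1453 called lower at 8C, the line is equality, and circled genes are named in the text: DUXA, KHDC1L, ARGFX, LEUTX, ZSCAN4 and KLF17 stand far above it.

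The PRD-like homeobox factors rose most. All 4 matched members were tested and called higher, with a median change of 9.26 log2 units, where all entries tested had a median of 0 and 13.9% were called higher. These genes were chosen with earlier results of the same data known. DUXA, which carries a pair of homeodomains and belongs to the DUX family of activators, had 4272 and 3172 RPKM at 8C, against 2.74, 1.80 and 2.76 RPKM at 4C. Its values at both 8C libraries were thus far above all 3 of 4C, and the change was 10.08 ± 0.75 log2 units (SE; adjusted p = 1.29e-08, limma). DUXA was the eighth most abundant entry at 8C by mean RPKM.

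DPRX (IMMRNTR1323), a divergent paired-related homeobox factor, had 2381 and 2690 RPKM at 8C and 0.878, 1.99 and 2.66 RPKM at 4C. No 8C value came near the 4C values, and the change was 9.85 ± 0.84 log2 units (SE; adjusted p = 6.83e-08, limma). ARGFX, a homeobox factor of the same class, had 1216 and 435 RPKM at 8C and 0.448, 0.431 and 1.80 RPKM at 4C. Its 8C libraries differed more from each other than those of DPRX, but stood clear of 4C, with a change of 8.66 ± 0.87 log2 units (SE; adjusted p = 6.04e-07, limma). LEUTX (IMMRNTR1244), a placental-mammal homeobox activator, had 805 and 1528 RPKM at 8C and 5.52, 9.04 and 7.24 RPKM at 4C. It was the only 1 of the 4 above 5 RPKM in every 4C library, and its change was 7.09 ± 0.87 log2 units (SE; adjusted p = 7.65e-06, limma). The listed genes DUXB, DUX4, TPRX1, TPRX2, CPHX1, CPHX2 and OTX2 were matched to no entry and were not analysed here.

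**Figure D2:**
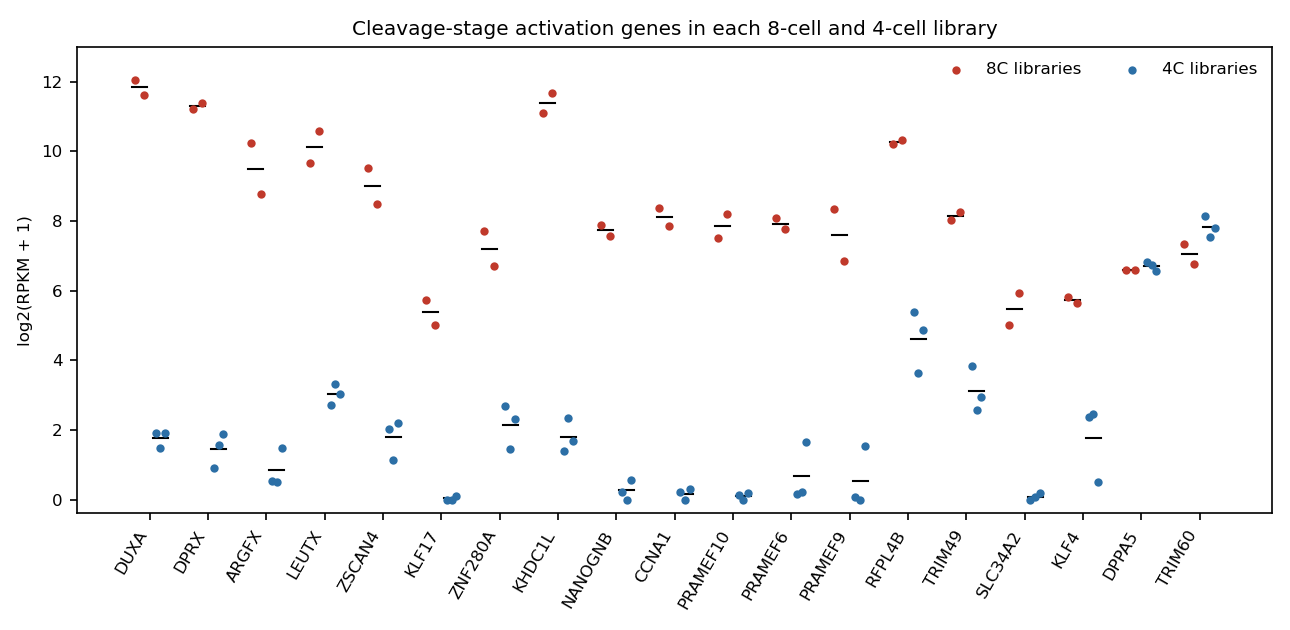
Log2(RPKM + 1) of 19 activation genes in each library, with 8C (red, 2 libraries) left of 4C (blue, 3 libraries) for every gene and a bar at the mean. The first 17 genes do not overlap between the stages, which held for 1952 of the 1989 entries called higher. DPPA5 overlaps, and TRIM60 is lower in both 8C libraries and was not called.

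Among the other cleavage-stage activation genes, 28 of 38 tested entries rose and 2 fell (73.7% and 5.26%, where all entries had 13.9% and 10.2%). The median change was 3.74 log2 units. Their falls, ZNF705A (IMMRNTR1432) and NANOGNB (IMMRNTR6053), were both lost without 8C-1 (adjusted p = 0.189 and 0.101, limma), 8C-2 (adjusted p = 0.096 and 0.0881) or 4C-1 (adjusted p = 0.0804 and 0.0585), and 1 fall was left without 4C-2 or 4C-3. Of the 51 matched entries of the lists of activators, 9 lay below the filter of 1 RPKM in 2 libraries and were not tested.

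Zinc finger regulators gave 3 rises and 1 fall among 6 tested entries (50% and 16.7%, where all entries had 13.9% and 10.2%). ZSCAN4, a SCAN-domain factor that marks genome activation in human and mouse embryos, had 728 and 361 RPKM at 8C, against 3.07, 1.20 and 3.55 RPKM at 4C. The stages were separated by a wide gap, with a change of 7.22 ± 0.71 log2 units (SE; adjusted p = 5.19e-07, limma). KLF17, a Krüppel-like factor of early human embryos, had 52.4 and 31.5 RPKM at 8C and 0, 0 and 0.076 RPKM at 4C. It was thus nearly absent at 4C, and changed by 5.35 ± 0.36 log2 units (SE; adjusted p = 4.06e-09, limma). ZNF280A had 208 and 103 RPKM at 8C, against 5.40, 1.72 and 3.95 RPKM at 4C, a change of 5.06 ± 0.54 log2 units (SE; adjusted p = 1.28e-06, limma). Its relative ZNF280B had 19.1 and 15.6 RPKM at 8C and 34.7, 28.3 and 63.2 RPKM at 4C, and was not called (adjusted p = 0.141, limma). KDM4E (IMMRNTR844), a histone lysine demethylase gene, had 13.5 and 21.8 RPKM at 8C, against 0.231, 0.388 and 1.29 RPKM at 4C (3.53 ± 0.34 log2 units, SE; adjusted p = 2.92e-07, limma).

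Every tested member of the PRAME family, leucine-rich repeat proteins known from the testis and from tumours, was called higher. These were 7 of 7, where 13.9% of all entries were called higher, and their median change was 5.73 log2 units. The family had 11 matched entries, and those not tested lay below the filter. PRAMEF10 had 182 and 296 RPKM at 8C and 0.103, 0 and 0.148 RPKM at 4C. PRAMEF6 had 270 and 218 RPKM at 8C and 0.118, 0.171 and 2.17 RPKM at 4C. The 8C values of these 2 genes were alike and their 4C values were near 0, with changes of 7.75 ± 0.54 and 7.24 ± 0.52 log2 units (SE; adjusted p = 6.68e-09 and 8.54e-09, limma). PRAMEF9 had 322 and 114 RPKM at 8C and 0.053, 0 and 1.89 RPKM at 4C, and PRAMEF21, PRAMEF22 and PRAMEF12 changed by 5.73, 3.83 and 4.35 log2 units. PRAME itself had 5.25 and 15.4 RPKM at 8C and 0.823, 0.037 and 0.050 RPKM at 4C (adjusted p = 0.00281, limma), and this call ended without 8C-2 (adjusted p = 0.0555, limma). The likeness of the sequences of this family was not examined. The counting program is not given in the sources used here, so reads may have been split among the entries.

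Of the TRIM and RFPL family, genes of ubiquitin ligases and their relatives, 7 of 8 tested entries rose (87.5%, where 13.9% of all entries did). Their median change was 3.91 log2 units. RFPL4B had 1181 and 1293 RPKM at 8C, against 40.5, 11.4 and 28.1 RPKM at 4C. It was thus already present at 4C, and its change was 5.65 ± 0.74 log2 units (SE; adjusted p = 1.50e-05, limma). TRIM49 had 4 entries, and the one that changed most (ENSMMUG00000010216) had 258 and 308 RPKM at 8C and 13.4, 4.96 and 6.76 RPKM at 4C. The other TRIM49 entries had 149 to 345 RPKM at 8C and 4.30 to 27.5 RPKM at 4C, with changes of 3.66 to 4.26 log2 units. TRIM64 had 37.3 and 39.4 RPKM at 8C and 4.48, 8.11 and 7.64 RPKM at 4C, and RFPL1 had 29.0 and 10.5 RPKM at 8C and 0.071, 1.33 and 0.273 RPKM at 4C. TRIM60 had 161 and 108 RPKM at 8C and 281, 186 and 223 RPKM at 4C, and it was the tested entry not called (adjusted p = 0.218, limma). The TRIM49 entries share 1 symbol and may share reads too, so the split among them is uncertain.

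The other activation genes included some of the most abundant entries at 8C. KHDC1L, an RNA-binding KH-domain gene, had 2215 and 3280 RPKM at 8C and 1.65, 4.04 and 2.19 RPKM at 4C, a change of 9.59 ± 0.68 log2 units (SE; adjusted p = 6.99e-09, limma). CCNA1, a cyclin A gene of germ cells, had 334 and 232 RPKM at 8C and 0.158, 0 and 0.228 RPKM at 4C (7.96 ± 0.55 log2 units, SE; adjusted p = 5.18e-09, limma). The other cyclin A gene, CCNA2, had 31.7 and 25.2 RPKM at 8C and 33.8, 30.5 and 35.6 RPKM at 4C and was not called (adjusted p = 0.905, limma). The 2 cyclin A genes thus stood in opposite order at the 2 stages: at 4C only CCNA2 was above 1 RPKM, and at 8C CCNA1 was the higher.

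NANOGNB (ENSMMUG00000032159), a homeobox gene beside NANOG, had 238 and 191 RPKM at 8C and 0.164, 0 and 0.473 RPKM at 4C (7.48 ± 0.89 log2 units, SE; adjusted p = 5.64e-06, limma). SLC34A2, a phosphate transporter gene (ENSMMUG00000021135), had 31.1 and 60.5 RPKM at 8C and 0, 0.048 and 0.129 RPKM at 4C. KLF4, a Krüppel-like reprogramming factor, had 55.7 and 48.7 RPKM at 8C and 4.15, 4.47 and 0.412 RPKM at 4C. These 3 genes had no overlap between the stages, which held for 1952 of the 1989 entries called higher. TFAP2C, an AP-2 factor, had 68.2 and 35.4 RPKM at 8C and 12.8, 15.2 and 10.7 RPKM at 4C (adjusted p = 0.0161, limma), a call that ended without 8C-1 (adjusted p = 0.174) or 4C-3 (adjusted p = 0.0518). DPPA5, a germ-line and pluripotency gene, had 96.4 and 96.4 RPKM at 8C and 113, 105 and 93.4 RPKM at 4C and was not called. RBP7, a retinol-binding protein gene, had 20.5 RPKM in 8C-1 and 0.428 RPKM in 8C-2 and was listed at 0 in every 4C library, with an adjusted p of 0.156 (limma).

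The remaining activation entries were lower in level or changed less. ZNF217, a zinc finger gene, had 26.1 and 12.4 RPKM at 8C and 2.08, 3.22 and 1.89 RPKM at 4C (2.51 log2 units, adjusted p = 0.00174, limma), and USP29, a deubiquitinase gene, had 29.5 and 26.4 RPKM at 8C and 0, 0 and 1.79 RPKM at 4C. Both rose in all fits that left out 1 library. TFAP2A, an AP-2 factor, had 0.460 and 0.889 RPKM at 8C and was listed at 0 at 4C, and FAM151A had 1.09 and 1.60 RPKM at 8C and 0.219, 0 and 0 RPKM at 4C. These 2 low-level calls were weak: TFAP2A lost its call without 8C-2 (adjusted p = 0.103, limma), and FAM151A without 8C-1, 8C-2, 4C-2 or 4C-3 (adjusted p = 0.06 to 0.142). WDR47 had 90.02 and 50.35 RPKM at 8C and 30.37, 19.04 and 47.9 RPKM at 4C, and ZNF622 had 16.4 and 5.76 RPKM at 8C and 2.26, 4.91 and 4.56 RPKM at 4C, and neither was called. ALPPL2 (IMMRNTR4292) was listed at 0 at 8C and had 1.28, 0 and 2.00 RPKM at 4C, and a second SLC34A2 entry (IMMRNTR5464) was listed at 0 in all 5 libraries.

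The activation genes differed in their level at the morula stage. Of 30 activation entries called higher with a mean of at least 10 RPKM at 8C, 16 had at least 1 RPKM in every Mo library. A further 6 were under 0.5 RPKM in every Mo library, and the rest met neither bound. Mo-2 alone kept some entries out of the 16, such as LEUTX with 23.6, 0.17 and 6.40 RPKM in Mo-1, Mo-2 and Mo-3. In 21 of the 30, every Mo library lay below both 8C libraries. DUXA had a mean of 2.43 RPKM at 4C, 3722 RPKM at 8C, 2020 RPKM at Mo and 36.0 RPKM at Bl. DPRX had 1.84 RPKM at 4C, 2536 RPKM at 8C, 2348 RPKM at Mo and 859 RPKM at Bl, and ARGFX had 0.892, 825, 1767 and 356 RPKM in the same order of stages. LEUTX had 7.27 RPKM at 4C, 1167 RPKM at 8C, 10.1 RPKM at Mo and 9.55 RPKM at Bl, and RFPL4B had 26.7, 1237, 6.94 and 9.08 RPKM. The 4 TRIM49 entries had means of 149 to 292 RPKM at 8C and 0.186 to 0.664 RPKM at Mo. These later levels are given as a description, since the members were selected for high values in the 8C libraries.

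Earlier levels differed as well. TRIM49 (ENSMMUG00000010218) had a mean of 117 RPKM at GV, 13.7 RPKM at MII, 101 RPKM at 2C, 21.7 RPKM at 4C and 279 RPKM at 8C, so its transcripts were listed in oocytes. PRAMEF10, PRAMEF12 and PRAMEF21 were at 0 in every MII library, and LEUTX was at 0 in every MII library and averaged 0.313 RPKM at PN and 0.174 RPKM at 2C. RFPL4B averaged 0.115 RPKM at PN and 0.892 RPKM at 2C. LEUTX and RFPL4B were thus below 1 RPKM on average before 4C and above it at 4C.

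**Figure D3:**
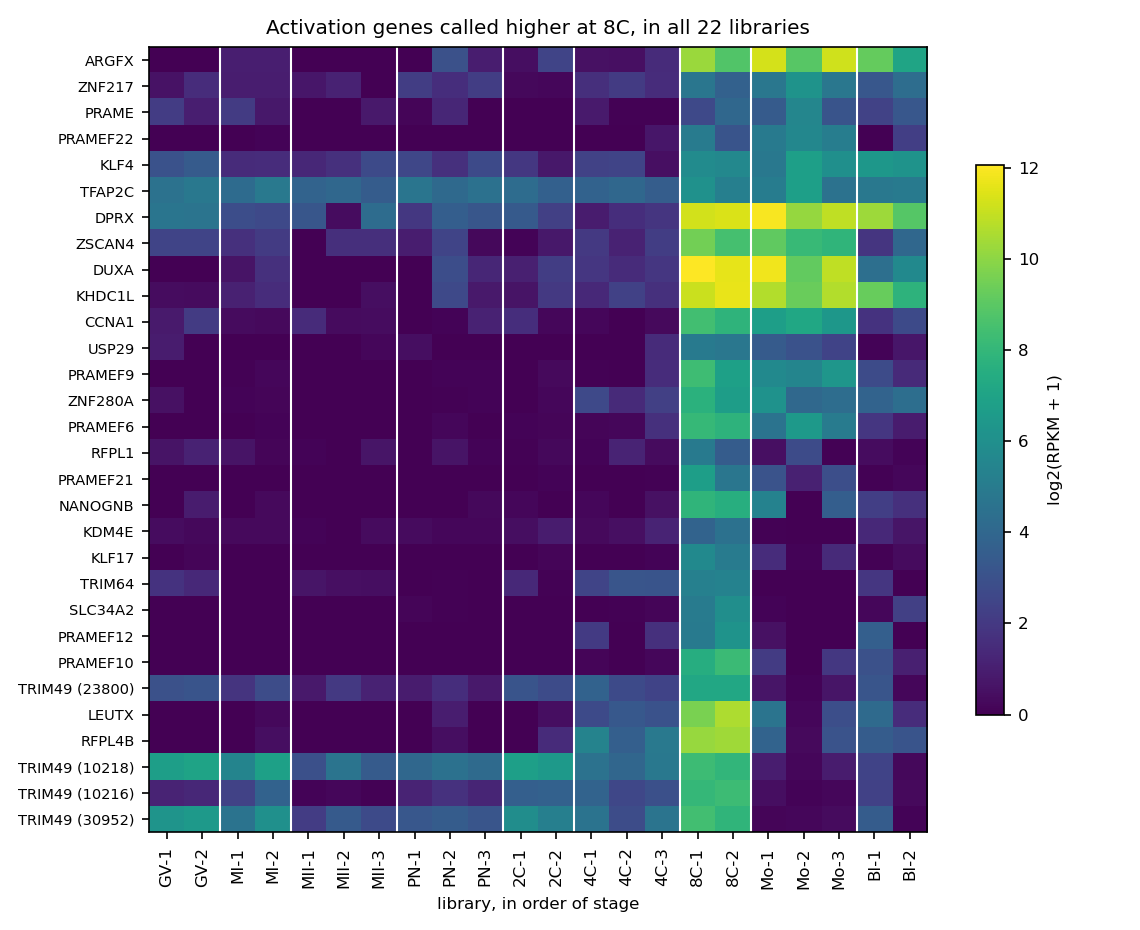
Log2(RPKM + 1), on the colour scale, of the 30 activation entries called higher at 8C with a mean of at least 10 RPKM there, in all 22 libraries in order of stage. Rows run from genes whose Mo mean was highest relative to 8C (ARGFX) to those whose Mo mean was lowest (TRIM49), with the ending of the identifier beside each TRIM49 entry. The 4C columns are dark for most genes and the 8C columns bright.

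A strict onset was counted for entries under 0.5 RPKM in every 4C library and at least 5 RPKM in both 8C libraries. Every library had to pass, so leaving 1 out could not lower this count or that of the opposite pattern. There were 246 such entries, 113 of which were under 0.5 RPKM in every earlier library too. Of the 246, 69 had at least 1 RPKM in every Mo library and 68 were under 0.5 RPKM in every Mo library. Without 8C-1 the count was 415, and without 8C-2 it was 568. After CCNA1, PRAMEF10 and NANOGNB, the highest included CCDC32, a coiled-coil gene, with 255 and 79.3 RPKM at 8C and 0, 0 and 0.086 RPKM at 4C, and ZIM3, a zinc finger gene, with 221 and 98.1 RPKM at 8C and 0, 0.074 and 0.199 RPKM at 4C. An entry that the file names GART (IMMRNTR3813) had 160 and 188 RPKM at 8C and was listed at 0 in all 3 libraries of 4C (adjusted p = 1.38e-09, limma). TIMM8A, a mitochondrial import chaperone gene, had 348 and 149 RPKM at 8C and 0, 0.088 and 1.58 RPKM at 4C, so that 4C-3 kept it outside the count. The opposite pattern, at least 5 RPKM in every 4C library and under 0.5 RPKM in both 8C libraries, was met by 45 entries (126 without 8C-1 and 114 without 8C-2), of which 28 had at least 1 RPKM in every MII library.

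Earlier levels of the called entries are a description, since low values at 4C and the filter helped to choose the entries called higher. Of the 1989 higher entries, 452 (22.7%) were under 0.5 RPKM in every library up to 4C, and 339 (17%) had at least 1 RPKM in all 12 libraries from GV to 2C. Over all entries tested these shares were 6.43% and 37.9%. Of the 1453 lower entries, 1104 (76%) had at least 1 RPKM in all 12. The median of the stage means of the lower entries was 16.2 RPKM at GV, 13.9 RPKM at MII, 15.8 RPKM at 4C, 2.55 RPKM at 8C and 0.488 RPKM at Mo. That of the higher entries was 0.764 RPKM at GV, 0.356 RPKM at MII, 0.274 RPKM at 4C, 8.63 RPKM at 8C and 1.65 RPKM at Mo. Over all entries tested the median was 3.11 RPKM at GV, 1.84 RPKM at MII, 1.74 RPKM at 4C, 2.46 RPKM at 8C and 0.793 RPKM at Mo. A lower median at Mo than at 8C was thus general.

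Entries called higher lay side by side at several loci. Positions are as deposited. The submitters' processing notes name the build Mmul_8.0.1, but whether the positions lie on that build was not checked. The longest run of neighbouring tested entries all called higher had 10 members on chromosome 14, from 87975789 to 88526913, and held TRIM64 and the 4 TRIM49 entries. The next had 9 members on chromosome 1, from 15904991 to 16054562, and held PRAMEF12, PRAMEF6, PRAMEF10, PRAMEF9, PRAMEF22 and PRAMEF21. Runs of 7 lay on chromosome 16, from 33126023 to 33489945, with ATP5MC1 and GIP, and on chromosome 19, from 11620800 to 11843669, with ZNF440, ZNF763, ZNF700 and ZNF878. Of the runs of 5 members, 1 on chromosome 19, from 59719438 to 59981784, held DPRX, and 1 further along it, from 62989263 to 63057354, held USP29, ZIM3, DUXA and ZNF805. Shorter runs were more common, with 54 of 3 members and 12 of 4, and run length was not tested. Neighbouring copies can share reads, so that the members of the TRIM49 and PRAMEF runs cannot be taken as independent measurements. Nor can those of the ZNF run, where ZNF878 was counted as IMMRNTR1216 and as ENSMMUG00000012586, whose positions overlap. GIP, the gene of a gut hormone, had 211 and 341 RPKM at 8C and 8.39, 3.54 and 1.58 RPKM at 4C.

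Chromosome 19 had the largest share of rises of the numbered chromosomes and X, 171 of 827 tested entries (20.7%, where all entries had 13.9%), and 4.59% of its entries fell, where all entries had 10.2%. Zinc finger genes named ZNF on chromosome 19 gave 45 rises and 8 falls among 200 tested (22.5% higher), and the other entries of that chromosome 126 rises and 30 falls among 627 (20.1% higher). ZNF genes on other chromosomes gave 38 rises and 25 falls among 216 (17.6% higher). Chromosome 16 had the next largest share of rises, 138 of 718 tested entries (19.2%), and 6.82% of its entries fell. The shares of these chromosomes were not tested against the rest.

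**Figure D4:**
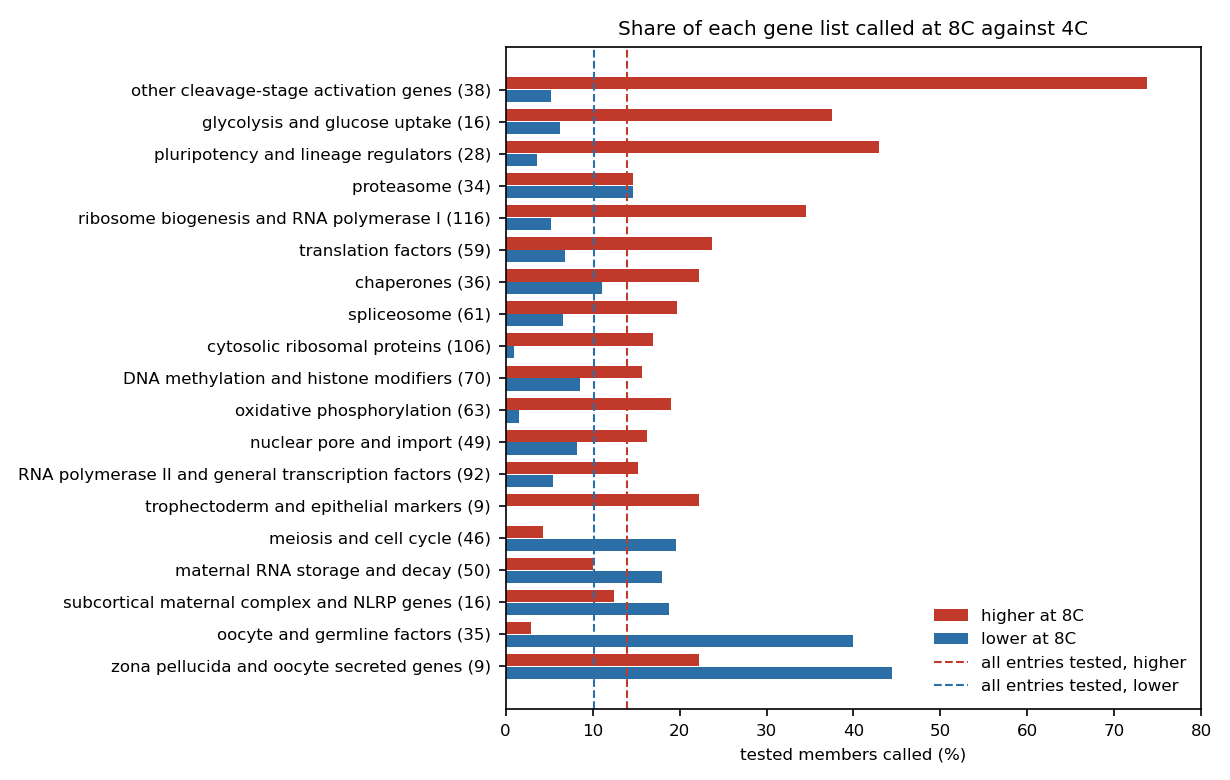
Percent of the tested members of each gene list called higher (red bars) or lower (blue bars) at 8C, for lists with at least 9 tested members (number in brackets), ordered by median change with the highest on top. Dashed lines mark the shares over all entries tested, 13.9% higher and 10.2% lower. Activation genes (73.7% higher) and pluripotency regulators (42.9% higher) lie at the upper end, and oocyte and zona genes (40% and 44.4% lower) at the lower end.

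Of 28 tested entries of pluripotency and lineage regulators, 12 rose and 1 fell (42.9% and 3.57%, where all entries had 13.9% and 10.2%). The median change was 0.99 log2 units. MYC, a growth-promoting transcription factor, had 22.3 and 22.8 RPKM at 8C and 0, 0 and 0.062 RPKM at 4C (4.53 ± 0.35 log2 units, SE; adjusted p = 1.73e-08, limma). Its relative MYCN had 5.06 and 6.80 RPKM at 8C and was listed at 0 in all 4C libraries (adjusted p = 1.29e-06, limma). DPPA2, a chromatin factor of pluripotent cells, had 19.8 and 17.9 RPKM at 8C, against 0.126, 0.182 and 0 RPKM at 4C, and SALL4, a zinc finger pluripotency regulator, had 28.0 and 19.1 RPKM at 8C, against 0.607, 0.729 and 2.43 RPKM at 4C. These genes had no overlap between the stages, which held for 1952 of the 1989 entries called higher. The core regulators gave no call: NANOG had 17.4 and 5.77 RPKM at 8C and 9.51, 1.63 and 3.54 RPKM at 4C (adjusted p = 0.183, limma), and POU5F1 (ENSMMUG00000015688) had 4.52 and 6.92 RPKM at 8C and 0.376, 2.87 and 1.97 RPKM at 4C (adjusted p = 0.198, limma). SOX2 was listed at 0 in all 5 libraries. KLF2 fell, with 1.20 and 4.79 RPKM at 8C and 10.6, 15.1 and 11.2 RPKM at 4C (adjusted p = 0.00536, limma), and the call ended without 8C-1 (adjusted p = 0.13).

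Genes of RNA polymerase II and its partners changed unevenly. Of 92 tested entries, 14 rose (15.2%, close to the 13.9% of all entries) and 5 fell, and with equal summed RPKM 22 rose and 3 fell. None of the 10 tested polymerase II subunits was called by limma (3 had an unadjusted p under 0.05), and the largest subunit, POLR2A, had 9.78 and 2.97 RPKM at 8C and 2.72, 4.18 and 3.54 RPKM at 4C (adjusted p = 0.379). Mediator, the bridge between activators and polymerase, gave 6 rises and 2 falls among 28 (21.4% and 7.14%, where all entries had 13.9% and 10.2%). MED1 (ENSMMUG00000009132) had 23.5 and 13.6 RPKM at 8C and 0.232, 0.223 and 0.134 RPKM at 4C, and MED4 had 102 and 23.0 RPKM at 8C and 2.85, 0.468 and 2.81 RPKM at 4C. Elongation factors gave 6 rises and 1 fall among 21 (28.6% and 4.76%). The fall was CDK7, a kinase of the polymerase tail, with 123 and 69.3 RPKM at 8C and 300, 288 and 413 RPKM at 4C. That fall ended without 8C-2 (adjusted p = 0.0537, limma). Without 8C-1 the list had 8 rises and 2 falls, without 8C-2 it had 2 falls, without 4C-1 it had 3 falls, and without Mo-2 24 rises and 9 falls.

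The spliceosome had 12 rises and 4 falls among 61 tested entries (19.7% and 6.56%, where all entries had 13.9% and 10.2%), and 1 fall with equal summed RPKM or median-of-ratios scaling. SRSF3, a serine- and arginine-rich splicing factor, had 408 and 211 RPKM at 8C and 5.88, 6.10 and 3.28 RPKM at 4C (5.63 ± 0.55 log2 units, SE; adjusted p = 4.67e-07, limma). SNRPD2 (ENSMMUG00000006937), a core protein of spliceosomal particles, had 391 and 197 RPKM at 8C and 30.5, 30.0 and 28.2 RPKM at 4C, and PRPF31 had 31.3 and 15.9 RPKM at 8C and 0, 0.584 and 0.260 RPKM at 4C. All 3 rose with no overlap, as did 1952 of the 1989 entries called higher. LSM6, a protein of the U6 particle, fell, with 20.3 and 15.6 RPKM at 8C and 86.0, 105 and 106 RPKM at 4C (adjusted p = 0.000324, limma). The list's falls numbered 1 without 8C-1 and 2 without 4C-1 or 4C-3, and its rises 20 without Mo-2.

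Ribosome biogenesis and RNA polymerase I gave 40 rises and 6 falls among 116 tested entries (34.5% and 5.17%, where all entries had 13.9% and 10.2%). The median change was 0.95 log2 units. POLR1C, a subunit of RNA polymerases I and III, had 82.9 and 33.3 RPKM at 8C and 0.090, 0.065 and 0.218 RPKM at 4C (5.58 ± 0.45 log2 units, SE; adjusted p = 3.02e-08, limma). GTPBP4, a GTPase of large-subunit assembly, had 39.7 and 15.2 RPKM at 8C and 0.027, 0 and 0 RPKM at 4C, and WDR3, a small-subunit processing factor, had 27.4 and 12.5 RPKM at 8C and 0, 0.713 and 0.076 RPKM at 4C. FBL, the methylase of box C/D particles, had 58.6 and 41.0 RPKM at 8C and 1.58, 0 and 2.66 RPKM at 4C. All 4 were below 2.7 RPKM in every 4C library. By role, 17 of 46 small-subunit factors, 14 of 43 large-subunit factors, 5 of 11 snoRNP proteins and 4 of 16 polymerase I entries rose. KRR1, a small-subunit factor, fell, with 47.2 and 50.2 RPKM at 8C and 151, 274 and 149 RPKM at 4C. NPM1 (ENSMMUG00000015781), the abundant nucleolar chaperone, had 1753 and 811 RPKM at 8C and 2497, 1568 and 2314 RPKM at 4C and was not called (adjusted p = 0.21, limma). The fit of the 5 libraries alone gave 26 rises, and the falls numbered 2 without 8C-1 and 3 without 8C-2 or 4C-3.

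Ribosomal protein genes gave 18 rises (17%, near the 13.9% of all entries) and 1 fall among 106 tested entries, with a median change of 0.30 log2 units. FAU, the precursor of a ribosomal protein fused to a ubiquitin-like domain, had 1908 and 3316 RPKM at 8C and 27.6, 47.8 and 40.4 RPKM at 4C (6.02 ± 0.81 log2 units, SE; adjusted p = 2.14e-05, limma). RPS26 had 1139 and 1453 RPKM at 8C and 116, 161 and 84.6 RPKM at 4C, RPL39 had 428 and 465 RPKM at 8C and 9.70, 22.6 and 5.91 RPKM at 4C, and RPL6 had 359 and 291 RPKM at 8C and 35.9, 52.7 and 41.7 RPKM at 4C. RPLP0, a stalk protein, had 487 and 237 RPKM at 8C and 524, 419 and 527 RPKM at 4C and was not called (adjusted p = 0.53, limma). The summed RPKM of the whole list was 29460 and 29220 at 8C and 20540, 29540 and 22020 at 4C, so that the sums overlapped in 4C-2. Processed copies of these genes can share reads, and without 8C-1 the list had 10 rises and 0 falls. Its falls numbered 0 without 4C-2, 2 without 4C-3 and 5 without Mo-2.

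Translation factors had 14 rises and 4 falls among 59 tested entries (23.7% and 6.78%, where all entries had 13.9% and 10.2%). Fewer falls were left without either 8C library, and 2 without 4C-3. EIF3I, an eIF3 subunit, had 276 and 108 RPKM at 8C and 5.02, 2.80 and 7.27 RPKM at 4C (adjusted p = 4.45e-05, limma), and EIF5, which triggers GTP hydrolysis at the start codon, had 87.6 and 54.0 RPKM at 8C and 1.89, 5.29 and 5.55 RPKM at 4C. The cap-binding protein gene EIF4E went the other way, with 10.36 and 11.98 RPKM at 8C and 191, 53.9 and 285 RPKM at 4C (adjusted p = 0.0106, limma). This call ended without 8C-1 (adjusted p = 0.0694). EIF4E averaged 22.3 RPKM at MII and 1917 RPKM at Mo, so that 8C was a low point between 4C and Mo.

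The largest falls were led by an entry with no assigned role. The entry that the file names LOC100505727 (IMMRNTR3840) had 0.106 and 0.781 RPKM at 8C and 112, 246 and 92.7 RPKM at 4C (-6.62 ± 0.51 log2 units, SE; adjusted p = 1.64e-08, limma). TFF3, a trefoil peptide gene, had 0.211 and 0 RPKM at 8C and 83.9, 50.1 and 47.3 RPKM at 4C (-5.75 ± 0.60 log2 units, SE; adjusted p = 1.05e-06, limma). CEP44, a centrosome protein gene, had 1.35 and 1.16 RPKM at 8C and 92.2, 61.8 and 67.4 RPKM at 4C (-5.03 ± 0.47 log2 units, SE; adjusted p = 2.11e-07, limma). Each was low in both 8C libraries and above 45 RPKM in every 4C library. Further large falls, at -4.93 to -4.29 log2 units, included the entries that the file names IL17RD (IMMRNTR439) and TPD52L2 (IMMRNTR6150). The others were PRG3, FGF14, ZNF224 (ENSMMUG00000021469), USP2, ZNF420 (ENSMMUG00000014214) and CAPZA1. The fall of CAPZA1 ended without 8C-1 (adjusted p = 0.183, limma) or 4C-1 (adjusted p = 0.0506).

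Genes of the egg coat, of oocyte secretion and of the germ line included many falls. Of 9 tested zona pellucida and oocyte secreted entries, 4 fell and 2 rose (2 falls without 8C-2), and of 35 oocyte and germline factors 14 fell (40%) and 1 rose, where 10.2% of all entries fell. Without 8C-1 the 14 falls were 6, and without 4C-3 there were 9 falls and 2 rises. With equal summed RPKM the falls were 7, and with median-of-ratios scaling 9. ZP3, a coat protein and sperm ligand, had 18.4 and 18.1 RPKM at 8C and 134, 220 and 112 RPKM at 4C (-2.96 ± 0.76 log2 units, SE; adjusted p = 0.00766, limma). GDF9 (IMMRNTR2410), an oocyte growth factor, had 17.1 and 26.0 RPKM at 8C and 281, 156 and 184 RPKM at 4C (-3.19 ± 0.48 log2 units, SE; adjusted p = 6.35e-05, limma). Its partner BMP15 had 43.1 and 32.4 RPKM at 8C and 254, 113 and 150 RPKM at 4C, a call that ended without 8C-2 (adjusted p = 0.0576, limma).

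Within the germ-line group, ELAVL2, an RNA-binding protein gene, had 6.07 and 5.86 RPKM at 8C and 21.8, 28.4 and 36.1 RPKM at 4C. MAEL, of the piRNA pathway, had 59.5 and 31.4 RPKM at 8C and 332, 221 and 403 RPKM at 4C, and DAZL, a translational regulator of germ cells, had 37.9 and 38.5 RPKM at 8C and 190, 112 and 249 RPKM at 4C. All 3 fell without overlap, as did 1437 of the 1453 entries called lower, by 2.07, 2.81 and 2.16 log2 units. The list's rise was TDRD1, a Tudor-domain gene, with 41.78 and 11.97 RPKM at 8C and 4.80, 4.02 and 5.38 RPKM at 4C, and it ended without 8C-1 (adjusted p = 0.162, limma). KITLG, the ligand of the KIT receptor, rose among the secreted genes, with 8.66 and 6.51 RPKM at 8C and 0, 0.028 and 0.038 RPKM at 4C. DPPA3, a maternal guard of DNA methylation, was listed under more than 1 entry. ENSMMUG00000031962 had 1114 and 1153 RPKM at 8C and 2644, 2522 and 2923 RPKM at 4C and was not called (adjusted p = 0.0967, limma). IMMRNTR2887 remained among the 10 most abundant entries of both stages. It had 4599 and 3434 RPKM at 8C and 10502, 9216 and 11762 RPKM at 4C and was called lower (adjusted p = 0.0469, limma). That call ended when any 1 of the 5 libraries was left out (adjusted p = 0.068 to 0.211).

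The subcortical maternal complex, a protein assembly under the membrane of egg and early embryo, and the NLRP genes gave 2 rises and 3 falls among 16 tested entries. These were 12.5% and 18.8%, where all entries had 13.9% and 10.2%. OOEP had 34.4 and 96.1 RPKM at 8C and 800, 212 and 669 RPKM at 4C (-3.05 ± 0.67 log2 units, SE; adjusted p = 0.00229, limma), and the call ended without 8C-1 (adjusted p = 0.0613). NLRP5 had 15.8 and 75.3 RPKM at 8C and 16.4, 41.5 and 50.02 RPKM at 4C, PADI6 had 16.9 and 37.8 RPKM at 8C and 36.5, 29.2 and 34.0 RPKM at 4C, and neither was called (adjusted p = 0.954 and 0.6, limma). TLE6 had 6.52 and 29.7 RPKM at 8C and 1.034, 2.839 and 6.347 RPKM at 4C (adjusted p = 0.0402, limma), a rise that ended without 8C-2 (adjusted p = 0.438), 4C-1 (adjusted p = 0.154) or 4C-2 (adjusted p = 0.0777), and the list then had 1 rise in each of these fits. Members of 1 protein assembly thus gave a rise, a fall and no call.

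Genes that store or degrade maternal RNA gave 5 rises and 9 falls among 50 tested entries (10% and 18%, where all entries had 13.9% and 10.2%). The excess of falls was absent with equal summed RPKM or median-of-ratios scaling, each of which gave 6 rises and 5 falls. BTG4, the adaptor that brings the CCR4-NOT deadenylase to maternal RNA, had 415 and 402 RPKM at 8C and 2002, 1918 and 2046 RPKM at 4C (-2.28 ± 0.56 log2 units, SE; adjusted p = 0.00578, limma). CNOT11, a subunit of that deadenylase, had 0.799 and 5.64 RPKM at 8C and 60.6, 30.6 and 73.2 RPKM at 4C (-3.93 ± 0.59 log2 units, SE; adjusted p = 7.38e-05, limma), and CNOT6L, a catalytic subunit, had 15.7 and 16.6 RPKM at 8C and 58.8, 56.3 and 51.6 RPKM at 4C. All 3 fell with no overlap between the stages, as did 1437 of the 1453 entries called lower. Other decay factors rose: YTHDF2, a reader of m6A, had 119 and 55.7 RPKM at 8C and 2.35, 5.50 and 2.05 RPKM at 4C (4.35 ± 0.55 log2 units, SE; adjusted p = 1.01e-05, limma), and BTG3, a relative of BTG4, had 79.2 and 28.4 RPKM at 8C and 0.060, 0.087 and 0.116 RPKM at 4C. The falls numbered 4 without 8C-1 and 14 without Mo-2, and the rises 2 without 4C-1 or 4C-3 and 3 without 4C-2 or 8C-1.

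Among meiosis and cell cycle genes, 9 of 46 tested entries fell and 2 rose (4 without Mo-2). These were 19.6% and 4.35%, where 10.2% of all entries fell and 13.9% rose. AURKA, a spindle kinase, had 105 and 154 RPKM at 8C and 956, 990 and 835 RPKM at 4C (-2.86 ± 0.43 log2 units, SE; adjusted p = 6.64e-05, limma). CCNB3 (ENSMMUG00000014161), a cyclin of meiosis, had 13.7 and 5.97 RPKM at 8C and 101, 57.7 and 71.4 RPKM at 4C, and FBXO43, an inhibitor of the anaphase-promoting complex, had 1.27 and 0.058 RPKM at 8C and 9.80, 9.06 and 12.1 RPKM at 4C. CDK4, the kinase partner of D-type cyclins, rose, with 45.1 and 15.9 RPKM at 8C and 0.045, 1.60 and 1.55 RPKM at 4C (3.87 ± 0.52 log2 units, SE; adjusted p = 2.22e-05, limma). CCNB1 had 436 and 515 RPKM at 8C and 917, 551 and 948 RPKM at 4C and was not called (adjusted p = 0.258, limma).

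Among chromatin genes, calls went both ways. Of 12 DNA methylation entries 4 fell and 1 rose, and of 58 histone methylation, acetylation and remodelling entries 2 fell and 10 rose, a difference between the groups that was not tested. The DNA methylation shares were 33.3% and 8.33%, where 10.2% of all entries fell and 13.9% rose. UHRF1, which recruits the maintenance methyltransferase, had 89.4 and 168 RPKM at 8C and 1441, 682 and 1778 RPKM at 4C (adjusted p = 0.00549, limma), and DNMT3A, a de novo methyltransferase, had 2.03 and 2.14 RPKM at 8C and 66.2, 29.5 and 44.8 RPKM at 4C (adjusted p = 0.0131, limma). The call of UHRF1 ended without 8C-1 (adjusted p = 0.072), and that of DNMT3A without 8C-1 (adjusted p = 0.0732) or 8C-2 (adjusted p = 0.0593). DNMT3A averaged 4.08 RPKM at MII and 97.9 RPKM at Mo, another low point at 8C. The maintenance enzyme DNMT1 had 157 and 273 RPKM at 8C and 315, 435 and 338 RPKM at 4C and was not called (adjusted p = 0.188, limma). TET1, a methylcytosine dioxygenase, rose, with 11.9 and 2.81 RPKM at 8C and 0, 0.016 and 0.143 RPKM at 4C.

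KDM5B, a demethylase of histone H3 lysine 4, gave the clearest rise of that list, with 94.3 and 86.3 RPKM at 8C and 0.971, 0.546 and 1.23 RPKM at 4C (5.59 ± 0.43 log2 units, SE; adjusted p = 1.91e-08, limma). NSD1 and SETD2, methyltransferases of histone H3 lysine 36, had 25.6 and 14.3 and 15.6 and 10.2 RPKM at 8C, and 0 to 0.569 and 0.338 to 0.703 RPKM at 4C. SMARCA2, a remodelling ATPase, fell, with 14.7 and 17.2 RPKM at 8C and 50.2, 56.4 and 66.1 RPKM at 4C (adjusted p = 0.00413, limma). Over the list of 70 the falls were 6 with all libraries and 2 without 8C-1.

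Among genes of energy metabolism, oxidative phosphorylation had 12 rises and 1 fall among 63 tested entries (19% and 1.59%, where all entries had 13.9% and 10.2%). Fewer rises were left without 8C-1, and there were 6 falls without Mo-2. NDUFA1 (ENSMMUG00000032194), a complex I subunit, had 42.1 and 47.7 RPKM at 8C and was listed at 0 in every 4C library. Its other entry (ENSMMUG00000032359) had 296 and 113 RPKM at 8C and 20.1, 26.1 and 12.6 RPKM at 4C. Glycolysis had 6 rises and 1 fall among 16 (37.5% and 6.25%). Its rises included HK2, a hexokinase, with 5.60 and 6.54 RPKM at 8C and 0.086, 0.445 and 0.166 RPKM at 4C. LDHA, a lactate dehydrogenase, rose as well, with 68.1 and 64.0 RPKM at 8C and 11.9, 7.41 and 20.2 RPKM at 4C. The fall of that list was PDK1, a kinase that inhibits pyruvate dehydrogenase, with 7.62 and 2.40 RPKM at 8C and 38.3, 15.1 and 35.5 RPKM at 4C, and it ended without 8C-2 (adjusted p = 0.0534, limma). The fit of the 5 libraries alone gave 3 rises and no fall in glycolysis.

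Chaperones had 8 rises and 4 falls among 36 (22.2% and 11.1%), with HSPA9, of the mitochondrial HSP70 system, at 101 and 49.2 RPKM at 8C and 3.81, 12.7 and 8.68 RPKM at 4C. Their falls were 1 with equal summed RPKM, 0 with median-of-ratios scaling, 2 without 4C-1, 1 without 4C-3, 2 without 8C-2 and 7 without Mo-2. Proteasome subunits had 5 rises and 5 falls among 34 (14.7% each, where all entries had 13.9% and 10.2%), and 12 rises and 4 falls with equal summed RPKM or 9 rises and 3 falls with median-of-ratios scaling. PSMD12 had 90.4 and 46.4 RPKM at 8C and 6.15, 2.52 and 16.8 RPKM at 4C, and PSMA2 had 488 and 438 RPKM at 8C and 1774, 2929 and 1891 RPKM at 4C, so that subunits of 1 complex moved in opposite directions (adjusted p = 0.00103 and 0.000646, limma). Proteasome rises were 3 without 4C-2 or 8C-1 and 11 without Mo-2, and falls 2 without 8C-1 and 3 without any other 1 of the 5 libraries. Nuclear pore and import genes had 8 rises and 4 falls among 49 (16.3% and 8.16%, near the shares of all entries), with KPNA2 (ENSMMUG00000016685), an importin, at 9.41 and 12.5 RPKM at 8C and 0.963, 0.309 and 0.437 RPKM at 4C. Those rises were 4 without 4C-1 or 4C-2, 5 without 8C-1 and 13 without Mo-2, and the falls 2 without 4C-3 or 8C-1 and 1 without 8C-2.

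Markers of other cells were mixed, with cumulus markers low in all 5 libraries and some sperm and trophectoderm markers higher at 8C. None of the 3 tested cumulus and granulosa entries was called by limma with all libraries (1 had an unadjusted p under 0.05, and there was 1 higher and 1 lower without 8C-1 and 1 lower without 4C-1). The 18 matched entries summed to 14.7 and 6.45 RPKM at 8C and 6.29, 27.0 and 21.9 RPKM at 4C, and AMH, INHA, FOXL2 and PTX3 were listed at 0. Of the sperm and testis markers, TNP1, a transition protein of spermatids, had 5.43 and 45.2 RPKM at 8C and was listed at 0 at 4C (adjusted p = 6.49e-06, limma), while the protamine genes PRM1 and PRM2 were listed at 0 in all 5. Of 9 tested trophectoderm and epithelial markers, 2 rose (22.2%, where 13.9% of all entries did, and 4 rose without Mo-2). CGA, the alpha subunit of chorionic gonadotropin, had 73.9 and 33.7 RPKM at 8C and 0, 0.508 and 0.113 RPKM at 4C (5.42 ± 0.43 log2 units, SE; adjusted p = 2.63e-08, limma), and DAB2, an endocytic adaptor, had 13.6 and 15.4 RPKM at 8C and 0.425, 0.017 and 0 RPKM at 4C. CGA averaged 0.636 RPKM at Mo and was listed at 0 in both Bl libraries.

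The 2 embryos at 8C differed from each other in some of the genes that rose. Of the 1989 entries called higher, 1254 (63%) were higher in 8C-1 than in 8C-2, where 7263 of all entries tested were above and 5717 below (56% of those that differed, with 1332 tied). Among the 917 of them with a mean of at least 10 RPKM, 494 (53.9%) lay within 2-fold of each other on the scale of RPKM + 1, while 91 were more than 4-fold higher in 8C-1 and 42 more than 4-fold higher in 8C-2. GALP, a neuropeptide gene, had 41.4 RPKM in 8C-1, and MAGEB1, a cancer-testis gene, had 35.2 RPKM there, against 0 and 0.936 RPKM in 8C-2. Both were listed at 0 at 4C and lost the call without 8C-1 (adjusted p = 1 and 0.254, limma), and GALP also without any 4C library (adjusted p = 0.0607 to 0.0633). The converse held for LCN6, a lipocalin gene, with 1.73 RPKM in 8C-1 and 153 RPKM in 8C-2, against 0.109, 0 and 0 RPKM at 4C.

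Zinc finger genes on chromosome 19 gave some wide gaps: ZNF763 had 449 RPKM in 8C-1 and 24.1 RPKM in 8C-2, and ZNF878 (ENSMMUG00000012586) had 327 and 36.2 RPKM, against at most 0.334 RPKM in any 4C library. Of the ZNF genes that rose, 37 of 45 on chromosome 19 and 29 of 38 on other chromosomes were higher in 8C-1, and of the other entries of chromosome 19 that rose, 62 of 126 were. NHP2, a small nucleolar RNA protein gene, had 2.41 RPKM in 8C-1 and 40.0 RPKM in 8C-2, against 0.285, 0 and 1.71 RPKM at 4C, and its call ended without 8C-2 (adjusted p = 0.492, limma), 4C-1 (adjusted p = 0.0766) or 4C-2 (adjusted p = 0.0913). The 8C libraries also differed in depth, at 20.49 and 5.57 M reads, and the part of depth in these differences was not tested.

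**Figure D5:**
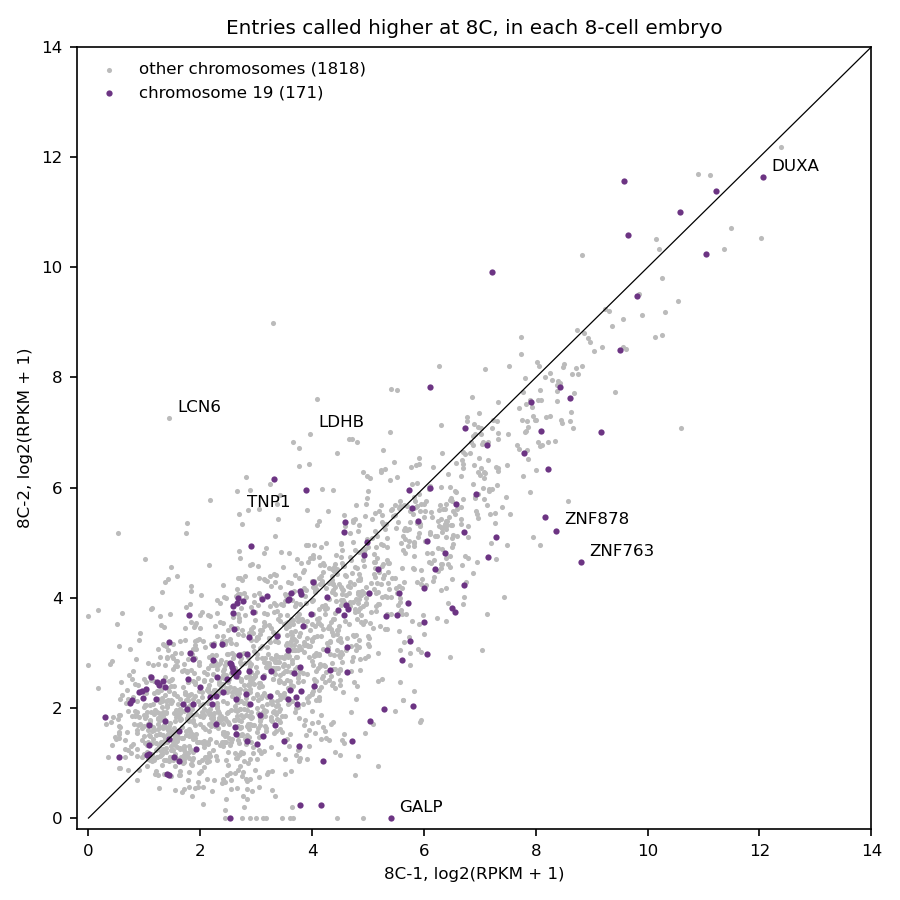
Log2(RPKM + 1) of the 1989 entries called higher at 8C, in 8C-1 (horizontal) and 8C-2 (vertical), with the 171 on chromosome 19 in purple and a line of equality. DUXA lies near the line, ZNF763, ZNF878 and GALP lie on the side of 8C-1, and LCN6, TNP1 and LDHB on the side of 8C-2.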

How the data were processed

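RNA was measured by sequencing poly(A)-primed libraries of single oocytes and embryos, per the labels' protocols. The deposited table holds RPKM computed by the authors. The submitters' processing notes name the build Mmul_8.0.1, and the deposited positions were not checked against it. The aligner, the counting program and the strand setting are not given in the sources used here. The table has 35468 entries (28595 ENSMMUG and 6873 IMMRNTR), of which 15556 took a symbol from a reference name table. Names of IMMRNTR entries are the file's own and were not checked, so such an entry may not be the gene named.

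Stage and library number came from the sample labels. RPKM were taken as log2(RPKM + 1), which understates the change of low genes. Entries that reached 1 RPKM in 2 or more of the 22 libraries were tested with limma 3.58.1 in R 4.3.3, 1 mean per stage, with trended and robust variance, 2-sided. P-values were adjusted by Benjamini-Hochberg over all 14312 entries, and adjusted p under 0.05 was a call. The code was tested on simulated data. Python 3.11.15, numpy 2.4.6, pandas 2.3.3 and matplotlib 3.10.9 made the tables and figures.

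RPKM keep relative levels only. Estimated depth was 5.57 to 21.43 M reads over the 22 libraries, from steps that gave whole reads within 0.05 for 91.7% of 496 low values. No interval from counts was computed.

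Named genes were all activation genes with at least 10 RPKM at 8C, the 12 largest changes in each direction, up to 3 called members of each list in each direction, and the extremes of the onset counts, of the gap between the 8C libraries and of the runs. The uncalled genes RBP7, ZNF280B, TRIM60 and DPPA5 belong to the activation lists, and some further examples were picked after their values were seen. A gene that the rule names is not reported here. The genes, lists and tests were chosen with earlier results of these data known. Alternatives were the pseudocount, the filter, the scaling, the samples fitted, the variance settings, the replicate block, other thresholds and leaving out single libraries. Scaling to equal summed RPKM was added after seeing the data.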

Additional observations from a re-analysis of the deposited data

How the results depend on the processing

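Every alternative kept more than 0 calls in both directions. A filter of at least 5 RPKM gave 1298 higher and 1385 lower, so that falls outnumbered rises, and the fit of the 4C and 8C libraries alone gave 968 lower. Leaving out 1 library gave 1615 to 2434 higher and 902 to 1967 lower, and the median change of all entries was then -0.079 to 0. That median was -0.129 with the filter on the 5 libraries, -0.202 with at least 5 RPKM, 0.119 with equal summed RPKM (chosen after seeing the data) and 0.049 with median-of-ratios scaling. The onset count was 132, 512 and 123 with thresholds of 0.1 and 5, 0.5 and 2, and 0.5 and 10 RPKM, and 285 to 568 with 1 library left out. The loss count was 26, 72, 140 and 16 with thresholds of 0.1 and 5, 1 and 5, 0.5 and 2, and 0.5 and 10 RPKM, and 55 to 126 with 1 library left out. Both of these counts required every library to pass, so leaving 1 out could not lower them. Libraries that shared a replicate number did not deviate together (r of their deviations was 0.002 for number 1 and -0.026 for number 2). These values cannot exclude that libraries of 1 number shared a source, since the deviations of 2 libraries at 8C mirror each other. The numbers were taken as not pairing the libraries, and a fit with the number as a replicate block gave 1920 higher and 1239 lower.

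Of 186 tested named entries, 162 were called and 108 were called in every one of the 15 alternatives that tested them. Leaving out 1 of the 5 libraries ended 48 calls, and the fit of these libraries alone ended 31. No called entry changed direction. Uncalled entries that did were DPPA5 (0.298 with equal sums, 0.149 with median-of-ratios scaling), CCNA2 (0.168 and 0.023 with the same), POU5F1 (IMMRNTR12, 0.042 with equal sums), NLRP5 (-0.998 to 1.186, and -0.379 without 4C-1), H1-8 (-1.454 to 0.182), MOS (-0.069 to 0.597) and POLR2A (-0.163 to 1.279) as single libraries were left out, SNRPD2 (ENSMMUG00000032370, -0.154 with a pseudocount of 0.1, and -0.943 to 1.578 as single libraries were left out) and RPLP0 (-1.037 to 0 likewise). The cause was not tested. With 2 and 3 libraries, and 8C-2 at 5.57 M reads, small changes of low genes may have been missed.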

Other observations

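The most abundant entries of 8C or of 4C included genes outside the lists, chosen here after their values were seen. PTTG1, the securin that restrains separase until anaphase, had 6612 and 4917 RPKM at 8C, against 21808, 25595 and 15146 RPKM at 4C, and was not called (adjusted p = 0.0891, limma). PCNA, the sliding clamp of DNA replication, had 463 and 456 RPKM at 8C, against 2063, 3316 and 2216 RPKM at 4C, a fall. An entry without a symbol (ENSMMUG00000006834) had 5330 and 4669 RPKM at 8C, against 120, 81.5 and 76.3 RPKM at 4C, a rise. The stages did not overlap in any of these, where 23.3% of all tested entries lay higher at 8C without overlap and 23.5% lower.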
